A study of Mus musculus with 12 samples.

Results

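Of the 84243 peaks in the master peak-list of accessible chromatin in 6 mouse blood cell types, 9244 (10.97%, 95% Wilson interval 10.8 to 11.2%) were first-intron peaks outside repeats. A peak was counted here when its centre lay over 500 bp from the nearest transcription start site (TSS), its annotation named intron 1 of a transcript, and its detailed annotation also named an intron, so that no repeat or CpG island was listed at its centre. They made up 13.01% of the 71072 non-promoter peaks and 33.5% (33.0 to 34.1%) of the 27570 intron peaks outside repeats. The other 18326 intron peaks outside repeats, in introns 2 and beyond, and 24133 intergenic peaks outside repeats served for comparison. All intervals given for shares and densities cover counting error only.

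The peaks came from ATAC-seq, in which a transposase cuts open DNA and leaves sequencing adapters there. The 12 samples are 2 replicates of each sorted population, from wild-type C57BL/6 mice that were 8 to 12 weeks old. Bone marrow gave B cells, granulocyte/macrophages (GMs), erythroid progenitors (EPs), megakaryocyte progenitors (MkPs) and hematopoietic stem cells (HSCs), and thymus gave T cells. The list is pooled over all samples and states neither the cell type in which a peak was found nor a read count, so the depth behind a peak is unknown, no value has a replicate error, and peaks are not replicates. No comparison between cell types was possible.

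The first intron begins at the end of the exon that carries the TSS, and in mammals it is usually the longest intron of a gene. Enhancers, DNA elements that raise transcription from a promoter at a distance, are often found there, and several are known in genes of the blood lineages. They are bound by transcription factors such as GATA1 in erythroid and megakaryocytic cells, PU.1 and CEBP factors in myeloid cells, and RUNX and ETS factors in most blood cells, while CTCF is the protein that holds many chromatin loops and domain borders.

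The middle 251 bases of 6 first-intron peaks are printed to show what such elements look like at red cell, platelet, stem cell, B cell and T cell genes. None is printed for granulocyte/macrophage genes, where 0 of 5 members held a match of PU.1 or CEBP. The 6 sequences were read from the plus strand of GRCm38 (mm10), and each is the peak of its gene with a match, nearest to the peak centre, of a family named for the lineage. Capitals mark those matches: TTATCT, the reverse complement of the GATA letters AGATAA, in Alas2 and Zfpm1, AGGAAG (ETS) in Fli1, CAGGTG and CAGCTG (E-boxes) in Foxo1, CTTTGAT (TCF) in Cd4, and TGTGGTT, the reverse complement of the RUNX letters AACCACA, in Ets1. A match of letters is a description and not a measured binding site.
Alas2: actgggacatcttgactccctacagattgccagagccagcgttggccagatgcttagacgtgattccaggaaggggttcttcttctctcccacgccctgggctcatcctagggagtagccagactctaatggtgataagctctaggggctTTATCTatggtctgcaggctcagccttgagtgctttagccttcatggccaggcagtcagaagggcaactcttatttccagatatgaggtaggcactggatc
Zfpm1: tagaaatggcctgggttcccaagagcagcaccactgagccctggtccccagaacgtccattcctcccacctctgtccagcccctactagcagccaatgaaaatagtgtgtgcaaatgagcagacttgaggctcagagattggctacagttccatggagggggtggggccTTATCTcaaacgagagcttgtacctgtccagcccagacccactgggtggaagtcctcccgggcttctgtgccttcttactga
Fli1: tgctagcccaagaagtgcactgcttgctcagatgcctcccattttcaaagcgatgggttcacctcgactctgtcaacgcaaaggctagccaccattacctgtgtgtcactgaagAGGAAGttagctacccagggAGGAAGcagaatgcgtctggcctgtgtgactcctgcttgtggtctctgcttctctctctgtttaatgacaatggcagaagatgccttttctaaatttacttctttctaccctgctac
Foxo1: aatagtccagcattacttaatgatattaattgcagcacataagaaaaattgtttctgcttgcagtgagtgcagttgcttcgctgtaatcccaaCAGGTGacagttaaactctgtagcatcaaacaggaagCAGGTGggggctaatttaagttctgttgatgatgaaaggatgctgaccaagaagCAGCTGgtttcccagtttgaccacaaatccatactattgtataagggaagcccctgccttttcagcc
Cd4: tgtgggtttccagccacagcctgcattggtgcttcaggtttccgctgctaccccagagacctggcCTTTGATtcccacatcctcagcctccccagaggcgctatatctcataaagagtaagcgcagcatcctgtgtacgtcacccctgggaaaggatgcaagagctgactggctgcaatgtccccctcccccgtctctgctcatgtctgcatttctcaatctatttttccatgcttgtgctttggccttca
Ets1: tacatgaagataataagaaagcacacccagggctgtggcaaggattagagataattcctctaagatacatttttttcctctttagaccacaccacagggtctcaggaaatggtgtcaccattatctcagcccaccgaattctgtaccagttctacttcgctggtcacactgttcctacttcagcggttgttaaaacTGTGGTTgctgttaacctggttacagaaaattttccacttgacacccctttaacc

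Each printed stretch lay in intron 1 of its gene. Alas2 encodes the erythroid form of the enzyme that starts heme synthesis, and its stretch, chrX:150549704-150549954, was centred 2412 bp downstream of the TSS with the GATA match 27.5 bp from the centre. The stretch of Zfpm1, which encodes FOG1, a partner of GATA1, was chr8:122294222-122294472, 12206 bp from the TSS, with the match 46.5 bp from the centre. Fli1 encodes an ETS factor of stem cells and megakaryocytes, and its stretch at chr9:32500152-32500402, 41175 bp from the TSS, held ETS matches 8.5 and 11.5 bp from the centre. The first of these also spelled the longer PU.1 letters GAGGAAGT. Foxo1, a forkhead factor needed in early B cells, had its stretch at chr3:52331762-52332012, 63550 bp from the TSS, with 3 E-box matches, the nearest 7.5 bp from the centre. The stretch of Cd4, the T cell co-receptor, was chr6:124885241-124885491, 2834 bp from the TSS, with the TCF match 57 bp from the centre. Ets1, an ETS factor of lymphocytes, had its stretch at chr9:32710357-32710607, 14445 bp from the TSS, with the RUNX match 74 bp from the centre. The Alas2 and Cd4 peaks were the only members in their genes.

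The rule itself sets intron 1 and a minimum distance from a TSS, so the distances of the members are a description only. The median distance to the nearest TSS of any gene was 9722 bp (95% interval 9351 to 10121 bp, quartiles 3198 and 23875 bp), against 29888 bp (29203 to 30629 bp) for later-intron peaks and 29898 bp for intergenic peaks. Within 5 kb of a TSS lay 32.9% of first-intron peaks and 8.35% of later-intron peaks. Over 100 kb away lay 2.99% and 14.7%, respectively. The TSS of the host transcript was a median of 11965 bp away (11528 to 12435 bp) over the 9163 members whose host was found. At the limit set by the rule, 32 members lay between 501 and 550 bp from a TSS, and 43 first-intron peaks outside repeats between 451 and 500 bp did not count as members.

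By RefSeq, 9163 of the 9244 members were placed in intron 1 of the transcript that the annotation names. Within the intron they lay almost evenly. Each step of 10% of the intron length, from the donor to the acceptor end, held between 9.56 and 11.1% of them, and the median position was 48.7% of the way (47.5 to 49.9%), against 49.0% for later-intron peaks. In host introns over 10 kb, the step nearest the TSS held 12.3% of first-intron peaks and the next step 9.69%. The host introns were long, with a median of 29808 bp (29058 to 30883 bp) against 10540 bp for later-intron peaks. Per intron number, the list held 9244 peaks in intron 1, 4636 in intron 2 and 2759 in intron 3, falling at each further number to 549 in intron 10.

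Because first introns are long, peaks were also counted per Mb of intron, with 1 transcript per gene and only bases over 500 bp from its TSS. First introns held 35.6 peaks outside repeats per Mb (8422 peaks in 236.6 Mb) and later introns 26.3 per Mb (17992 peaks in 684.4 Mb). The ratio was 1.35 (exact 95% interval 1.32 to 1.39), and first introns had the higher density on 20 of 21 chromosomes, with chromosome 16 (31.7 against 32.2 per Mb) as the exception. Chromosome Y, counted among the 20, rests on 1 first-intron peak against 0 later-intron peaks. The ratio changed with distance from the TSS of the same transcript. It was 0.901 (0.704 to 1.17) at 0.5 to 1 kb and 1.11 (0.955 to 1.30) at 1 to 2 kb, where both intervals include 1. Between 2 and 50 kb first introns were denser in each bin, from 1.32 (1.19 to 1.45) at 2 to 5 kb to 1.14 (1.08 to 1.20) at 20 to 50 kb. Beyond 50 kb they were sparser: 0.898 (0.831 to 0.969) at 50 to 100 kb, 0.603 (0.533 to 0.680) at 100 to 200 kb and 0.486 (0.389 to 0.601) beyond 200 kb. The higher density in first introns was thus found between 2 and 50 kb from the TSS. The distance bins, here and below, were not matched for intron length. A first-intron base over 50 kb from its TSS lies in a long intron, while later introns at that distance can be short.

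**Figure D1:**
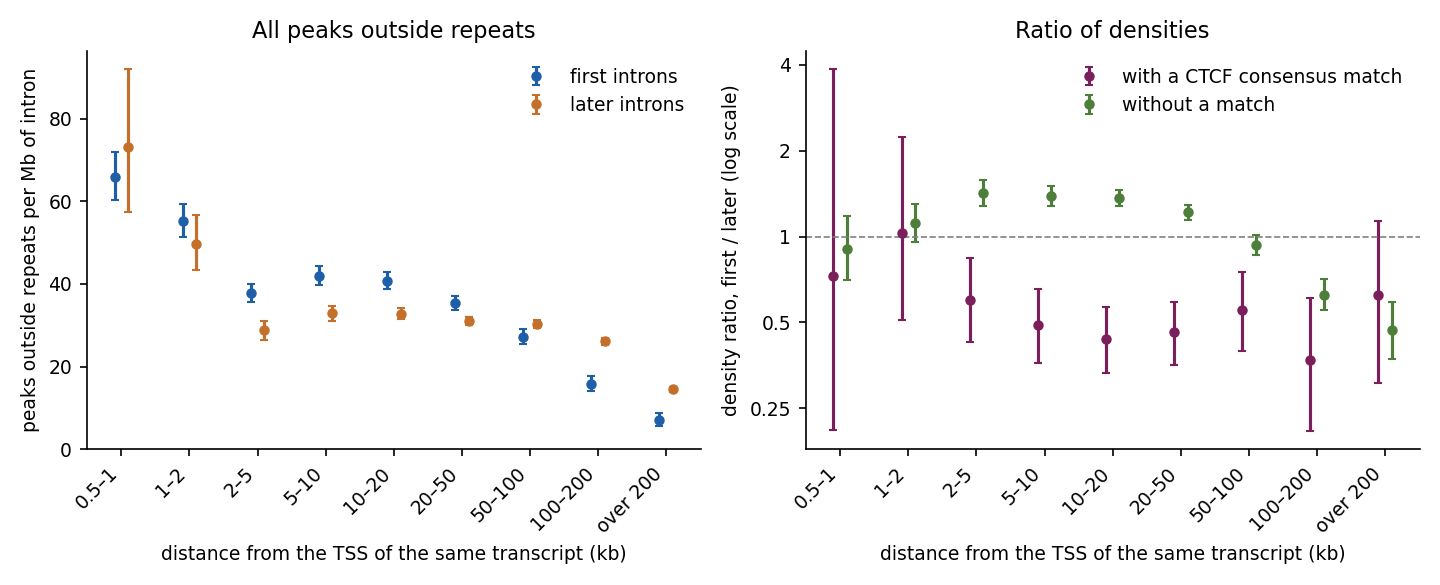
Left, intron peaks outside repeats per Mb of first (blue) and later (orange) introns by distance from the TSS of the same transcript, with exact Poisson 95% intervals. Right, the ratio of the densities on a log scale with exact 95% intervals, for peaks with and without a CTCF consensus match; without a match the ratio is 1.42 at 2 to 5 kb, and with a match it is 0.600.

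First-intron peaks lay nearer to another peak than later-intron peaks did, and the TSS of their host had a peak slightly more often. The first intron begins near the host TSS, and peaks at promoters were counted as neighbours. The gaps between peaks and the gene of the nearest promoter are therefore a description only. Whether these differences remain at matched distance from the TSS was not tested. The nearest other peak of the list was a median of 3020 bp away (2945 to 3119 bp), against 5130 bp (5009 to 5241 bp) for later-intron peaks, and 37.0% against 24.2% had another peak within 2 kb, a difference of 12.8 points (11.6 to 13.9). The TSS of the host transcript had a peak within 500 bp for 75.3% (74.4 to 76.2%) of first-intron peaks and 72.1% (71.5 to 72.8%) of later-intron peaks. The nearest promoter belonged to another gene than the host for 726 of 9163 first-intron peaks (7.92%), against 37.0% of later-intron peaks. The Alas2 peak was of this kind: the promoter listed as nearest was that of the microRNA gene Mir3620. A rule that gives a peak to its nearest promoter therefore assigned that element to a microRNA, although the peak lay within the first intron of Alas2.

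The 9163 placed members lay in 4263 genes, or 19.2% of the 22231 genes with an intron in a curated RefSeq transcript. Of these hosts, 2396 held 1 peak, 1466 held 2 to 4, and 401 held 5 or more, which together held 32.7% of the members. At least 3 members were present in 1006 genes (4.53% of the 22231). The share of genes with a member grew with the length of the first intron, from 2.13% (1.80 to 2.52%) of genes whose first intron was at most 1 kb to 30.4% (29.2 to 31.7%) at 5 to 20 kb and 64.8% (60.0 to 69.3%) over 100 kb. Among the 8396 genes with a first intron over 5000 bp it was 40.5%.

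At every length, genes with an open promoter held a first-intron peak more often. A gene was called open here when a peak of the list was centred within 500 bp of its TSS. Over all lengths 24.4% (23.7 to 25.1%) of 13108 open genes and 11.7% (11.1 to 12.4%) of 9106 other genes had a member. At 20 to 50 kb the shares were 63.3% and 37.8%, a difference of 25.5 points (20.7 to 30.1), and over 100 kb they were 77.6% and 50.8%. In the shortest class, up to 1 kb, the difference was 0.970 points (0.248 to 1.69). In each of the 6 length classes the interval of the difference lay above 0.

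**Figure D2:**
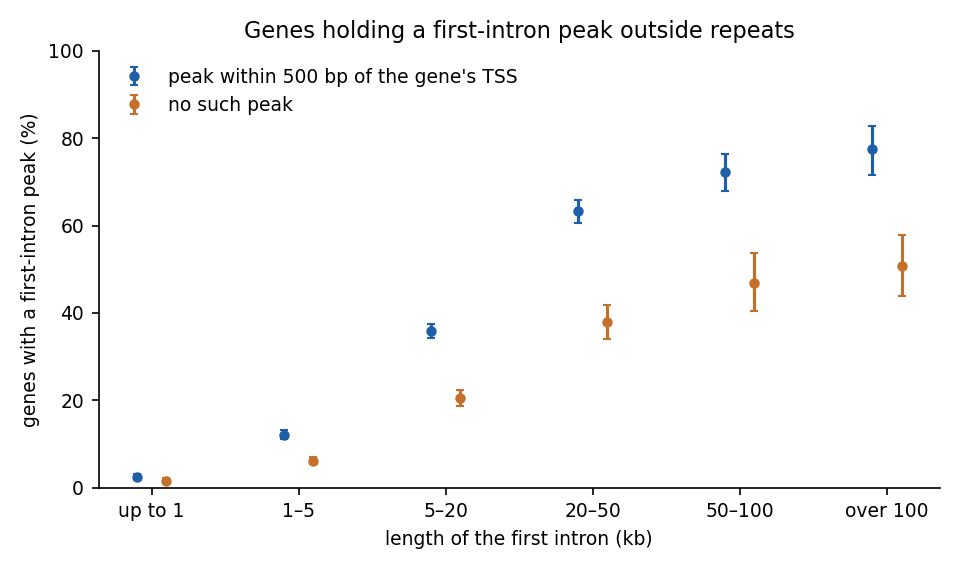
Percentage of genes with at least 1 first-intron peak outside repeats (y axis) by length of the first intron (x axis, kb), for genes with and without a peak within 500 bp of the TSS, with 95% Wilson intervals. The share is higher with an open promoter in each length class, 63.3 against 37.8% at 20 to 50 kb.

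The 10 genes with the most members were ranked by count alone. Elmo1, which encodes an activator of Rac used in engulfment and migration, held 25, over the first introns of 2 transcripts. Bcl2, the inhibitor of apoptosis, held 24 along an intron of 168906 bp, from 6779 to 169230 bp from its TSS. For 15 of these 24 the nearest promoter was that of the microRNA gene Mir3473f. Foxp1, a forkhead factor of lymphocyte development, also held 24, over 2 first introns. Iqsec1, an exchange factor for ARF GTPases, held 22. Pip4k2a, a phosphoinositide kinase, followed with 21, and Cmip and the nuclear receptor gene Rora with 20 each. Those of Cmip lay in 2 first introns. Those of Rora lay in the first introns of 2 transcripts, from 11709 to 541313 bp from the TSS of the transcript. Prkce, which encodes a protein kinase C, and Ptprj, a receptor phosphatase also known as CD148, held 19 each, and 11 of those in Prkce had the promoter of 2010106C02Rik as the nearest. Arhgap6, on the X chromosome, held 18, as did Ext1 and Hivep3. Those of Arhgap6 lay in 3 first introns.

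**Figure D3:**
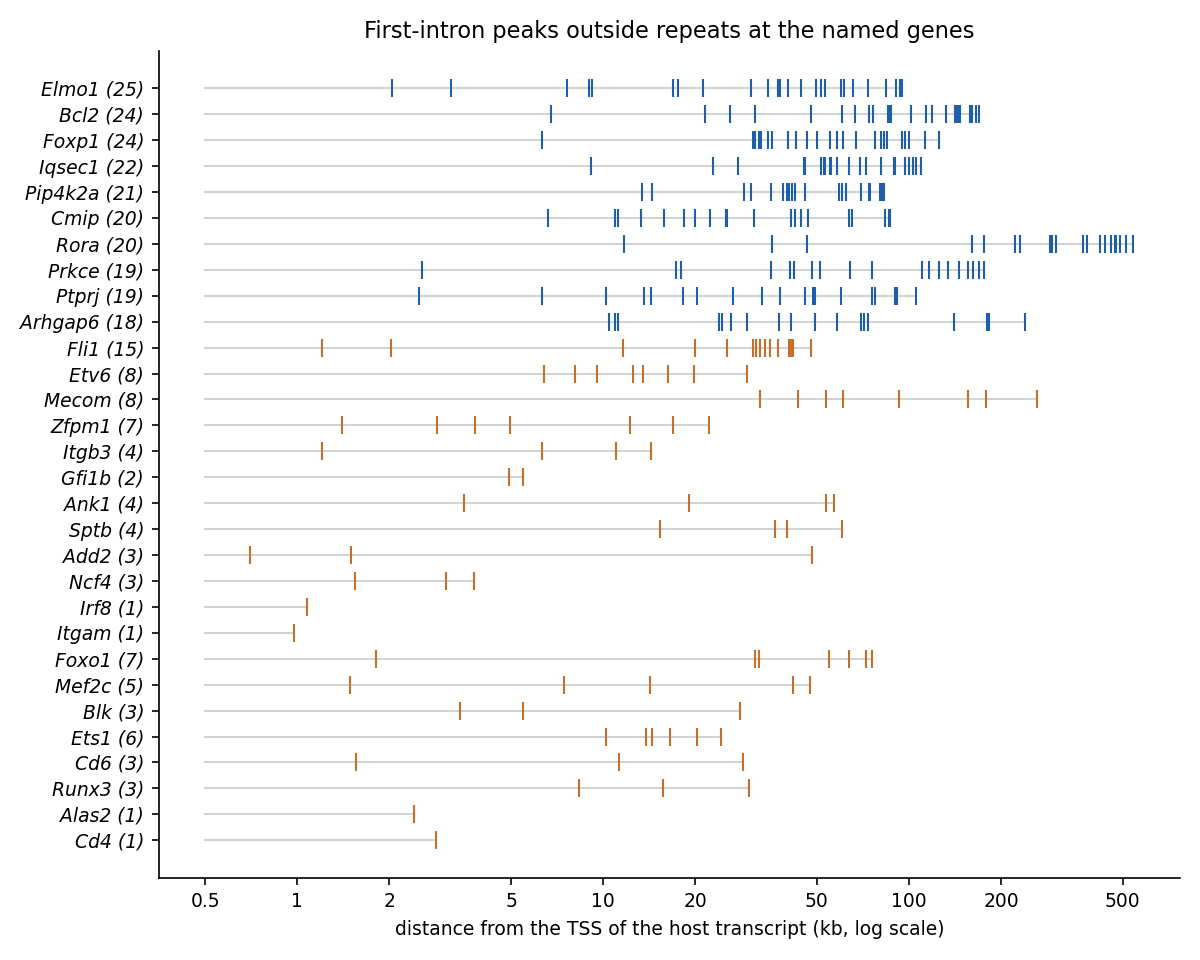
First-intron peaks outside repeats (ticks) by distance from the TSS of the host transcript (x axis, kb, log scale) in the 10 genes with the most members (blue) and in up to 3 genes of each blood list plus Alas2 and Cd4 (orange), with the number of members in brackets. The grey line runs from 0.5 kb to the farthest member, which is 541313 bp from the TSS in Rora and 1078 bp in Irf8.

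Lists of lineage genes, chosen with earlier results of these data known, were then set beside these backgrounds. They include genes that the paper itself shows as examples from these data, so the shares are a description and not an independent comparison. A first-intron peak was present in 8 of 19 stem cell regulators (42.1%, 23.1 to 63.7%), 7 of 16 megakaryocyte and platelet genes (43.8%, 23.1 to 66.8%), 10 of 20 erythroid genes (50%, 29.9 to 70.1%), 10 of 22 B cell genes (45.5%, 26.9 to 65.3%) and 11 of 24 T cell genes (45.8%, 27.9 to 64.9%), each beside 19.2% of all genes. Granulocyte/macrophage genes had 3 of 20 (15.0%, 5.24 to 36.0%), housekeeping genes 3 of 20 and neural genes 5 of 20 (25.0%, 11.2 to 46.9%). The median first intron was 818 bp in the granulocyte/macrophage list, 8700 bp in the T cell list and 2854 bp over all genes. Among genes with a first intron over 5000 bp, the counts were 6 of 9 stem cell, 5 of 5 megakaryocyte and platelet, 6 of 8 erythroid, 1 of 3 granulocyte/macrophage, 7 of 11 B cell and 10 of 14 T cell genes, beside 40.5% of all such genes, with 4 of 7 neural and 0 of 4 housekeeping genes. The lists are small, and the lower bound of the interval exceeded 40.5% for the megakaryocyte and platelet, erythroid and T cell lists only, at 56.6, 40.9 and 45.3%.

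Among stem cell regulators, Fli1 held 15 members, from 1204 to 47692 bp from its TSS, and 9 of these lay between 30881 and 41792 bp. Etv6, an ETS repressor needed for HSC maintenance, held 8 within 29515 bp of its TSS, in an intron of 101146 bp. Mecom, which encodes the stem cell factor EVI1, held 8 between 32615 and 262847 bp. Hhex held 2 in an intron of 1955 bp, and Prdm16 also held 2, at 94136 and 105295 bp. Runx1 and Erg, with well-known intronic enhancers, held none. In Runx1, 11 intron peaks were assigned to intron 2 and none to intron 1. In Erg, 12 were in intron 2, and both peaks in intron 1 failed the rule.

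In the megakaryocyte and erythroid lists, Zfpm1 held 7 members between 1396 and 22112 bp from its TSS, and 4 of them had a GATA match. Itgb3, the platelet integrin subunit, held 4, and Gfi1b, which encodes a transcriptional repressor present in cells of both lineages, held 2, at 4933 and 5455 bp. Ank1 and Sptb, which encode the membrane skeleton proteins ankyrin and spectrin beta, held 4 each, and Add2 and Epb41, which encode further proteins of that skeleton, held 3 each. None of the 4 in Ank1 had a GATA match. Over the lists, a GATA match was present in 9 of 17 members of megakaryocyte and platelet genes (52.9%, 30.96 to 73.8%) and in 9 of 22 of erythroid genes (40.9%, 23.3 to 61.3%), beside 27.2% of all members. Of the 9 in megakaryocyte and platelet genes, 4 were in Zfpm1. In the other lists, PU.1 and CEBP were each present in 0 of 5 members of granulocyte/macrophage genes, TCF in 1 of 23 and RUNX in 3 of 23 of T cell genes, and the E-boxes CAGCTG and CAGGTG in 9 of 27 each and IRF in 3 of 27 of B cell genes. In stem cell regulators, ETS was present in 24 of 38 and RUNX in 8 of 38. Over all members the shares were 10.6% for PU.1, 21.1% for CEBP, 6.97% for TCF, 18.6% for RUNX, 31.8% for CAGCTG, 33.4% for CAGGTG, 16.9% for IRF and 67.5% for ETS.

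In the lymphoid and myeloid lists, Foxo1 held 7 members, from 1815 to 75411 bp, Mef2c held 5, and Cd74 and Blk held 3 each. Ets1 held 6 between 10198 and 24233 bp, and Runx3 and Cd6, a T cell surface receptor, held 3 each. Ncf4, a subunit of the phagocyte oxidase, held 3, at 1550, 3074 and 3787 bp, with no PU.1 or CEBP match in any. Irf8 and Itgam held 1 each, at 1078 and 974 bp. Irf8 is counted here in the granulocyte/macrophage list, but the paper gives it as its B cell example. In the comparison lists, Pgk1 held 2 members and the neural genes Rbfox1 and Dlg2 held 8 and 4.

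The sequence of the members was compared with that of later-intron peaks for 13 consensus families, searched on both strands. Of all 84243 peaks, 24.1% held the GATA letters AGATAA, 62.4% ETS (AGGAAG), 9.39% PU.1 (GAGGAAGT, which contains the ETS letters), 16.1% RUNX (AACCACA), 19.3% CEBP (TTGCNNAA), 15.3% AP-1 (TGANTCA), 29.8% and 32.6% the E-boxes CAGCTG and CAGGTG, 6.76% TCF (CTTTGAT), 16.3% IRF (GAAANNGAA), 7.68% CTCF (searched by an 11-letter consensus), 24.1% the GC box (GGGCGG) and 1.75% YY1 (AANATGGCG). For 10 of the 13 families the Newcombe interval of the difference between first-intron and later-intron peaks included 0. GATA, for example, was found in 27.2% of first-intron and 28.0% of later-intron peaks (difference -0.743 points, -1.85 to 0.378), and RUNX in 18.6% and 18.1% (0.485 points, -0.476 to 1.46). On average a first-intron peak held 2.71 ± 1.31 families (SD over 9244 peaks) and a later-intron peak 2.73 ± 1.29.

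The largest of the 13 differences was for CTCF. A CTCF match was found in 465 first-intron peaks (5.03%, 4.60 to 5.50%) and in 1860 later-intron peaks (10.15%, 9.72 to 10.6%), a difference of -5.12 points (-5.74 to -4.49). The share was lower in first introns on each of 20 chromosomes compared. Intergenic peaks held it in 11.1% (10.7 to 11.5%) and promoter peaks in 1.99% (1.76 to 2.24%). The matches lay near the peak centre, at a median of 21 bp in first-intron and 18 bp in later-intron peaks, against 111.5 and 107.5 bp for GATA.

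**Figure D4:**
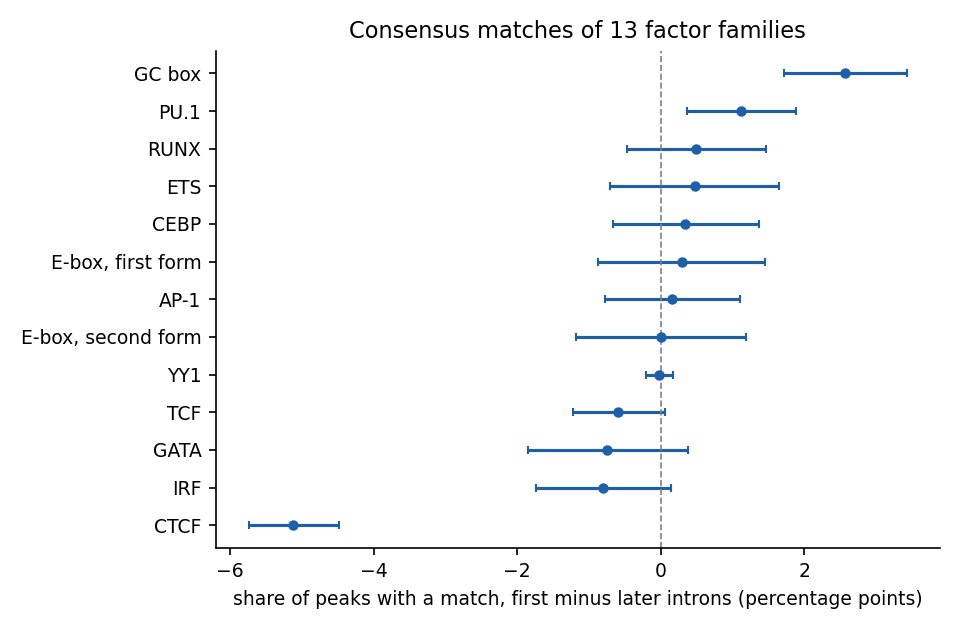
Difference in the share of peaks with a consensus match, first-intron minus later-intron peaks (x axis, percentage points), for 13 families, with Newcombe 95% intervals. The E-box forms are CAGCTG, then CAGGTG. CTCF lies at -5.12, the GC box at 2.56 and PU.1 at 1.12, and the other intervals cross 0.

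The CTCF share was higher at each further intron from the first to the fifth. It was 5.03% in intron 1, 6.62% (5.94 to 7.37%) in intron 2, 8.34% (7.36 to 9.43%) in intron 3, 10.1% (8.76 to 11.5%) in intron 4 and 11.3% (9.69 to 13.05%) in intron 5, and between 11.04 and 14.2% in introns 6 to 10. In the first introns of transcripts with 1 intron only it was 5.48% (3.79 to 7.85%), and in last introns other than the first it was 10.7% (9.48 to 12.1%). Among hosts that are long non-coding RNAs it was 5.66% (3.895 to 8.17%) in first and 7.20% (5.49 to 9.39%) in later introns, and these intervals overlap.

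Host introns differ in length with their number, so the share was also taken within length classes. In introns up to 2 kb, 4.78% (2.69 to 8.36%) of first-intron and 16.4% (15.0 to 17.8%) of later-intron peaks held a CTCF match. The difference narrowed with length, to -2.78 points (-3.96 to -1.60) at 20 to 50 kb and -1.80 (-3.21 to -0.375) at 50 to 100 kb. In introns over 100 kb the shares were 6.80% and 6.88%, a difference of -0.0727 points with an interval from -1.95 to 1.83. By distance to the nearest TSS the difference was -8.40 points (-10.2 to -6.62) at 5 to 10 kb, with 4.36% against 12.8%, and 1.08 points (-2.03 to 5.23) over 100 kb.

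**Figure D5:**
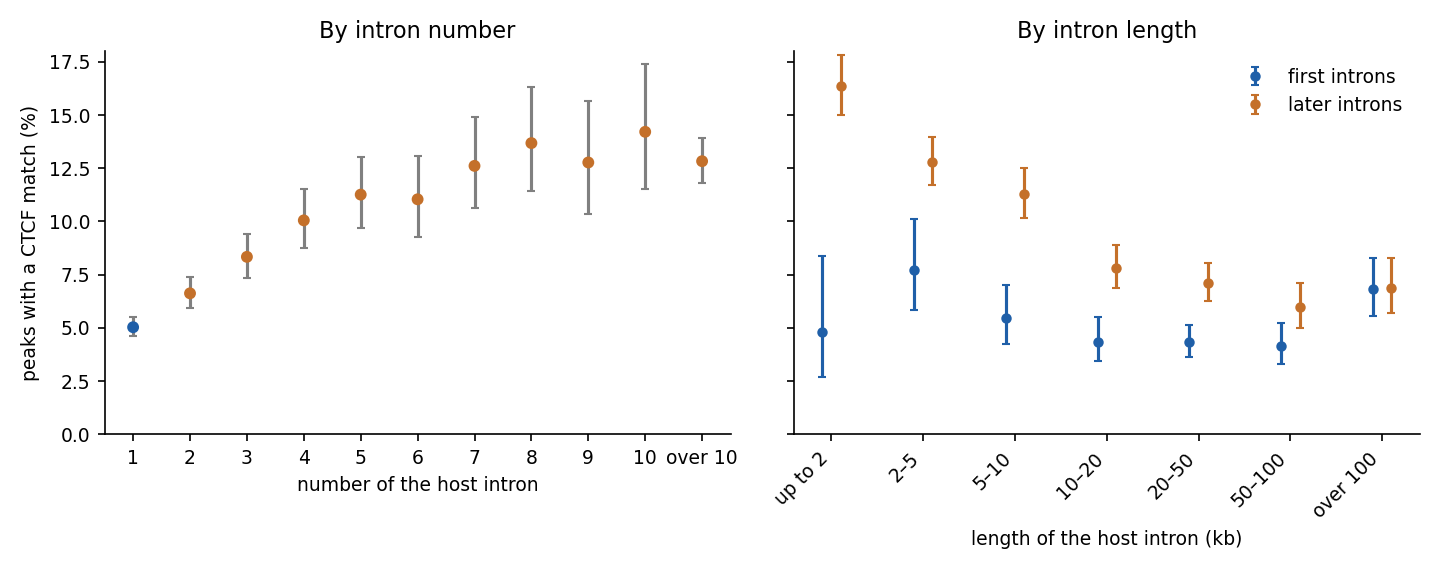
Percentage of intron peaks outside repeats with a CTCF consensus match (y axis), by number of the host intron (left; blue, intron 1) and by length of the host intron in kb (right; blue, first introns, orange, later introns), with 95% Wilson intervals. The share goes from 5.03% in intron 1 to 14.2% in intron 10, and the groups meet in introns over 100 kb.

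Counted per Mb of intron over all distances, peaks with and without a CTCF match went in opposite directions. Peaks without a match were 1.44 times as dense in first as in later introns (33.9 against 23.6 per Mb, ratio interval 1.397 to 1.47) and denser on 20 of 20 chromosomes. Peaks with a match were 0.639 times as dense (1.71 against 2.67 per Mb, 0.573 to 0.712) and denser on 0 of 20. Within distance bins the directions were opposite between 2 and 50 kb. Nearer the TSS, the ratios without and with a match were 0.908 and 0.728 at 0.5 to 1 kb and 1.115 and 1.03 at 1 to 2 kb, all with intervals that include 1. At 50 to 100 kb the ratio without a match was 0.933 (0.862 to 1.01) and that with a match 0.553. At 100 to 200 kb both kinds were sparser in first introns (0.626 without and 0.369 with a match), and beyond 200 kb the ratios were 0.472 and 0.624, the latter with an interval that includes 1 (0.3075 to 1.14). The DNA itself held fewer matches: outside soft-masked repeats, first introns had 13.8 CTCF matches per Mb and later introns 16.0, a ratio of 0.865 (0.826 to 0.907). Of those matches, 383 of 2337 (16.4%, 14.9 to 17.9%) in first introns and 1753 of 7759 (22.6%, 21.7 to 23.5%) in later introns lay in an intron peak outside repeats, a difference of -6.21 points (-7.93 to -4.40), lower on 19 of 20 chromosomes. For the other families searched in intron DNA the share in a peak was higher in first introns: 7.82% against 5.60% for PU.1, 5.78% against 4.39% for the GC box and 1.90% against 1.41% for GATA. Peaks of any kind were also denser there, at 49.8 against 37.0 per Mb outside soft-masked repeats, a ratio of 1.345. Whether the shares of these families go beyond that ratio was not tested. CTCF matches thus differed from those of PU.1, the GC box and GATA. They lay less often in an intron peak outside repeats in first than in later introns. Matches in other peaks, such as those on a CpG island or a repeat, were not counted as lying in a peak.

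The GC box, the site of SP and KLF factors, and PU.1 were the families with a higher share in first introns. The GC box was present in 14.5% (13.8 to 15.3%) of first-intron and 12.0% (11.5 to 12.4%) of later-intron peaks, 2.56 points more (1.71 to 3.43), on 19 of 20 chromosomes. This followed distance from the TSS: in first introns the share fell from 28.5% at 0.5 to 1 kb to 11.4% at 20 to 50 kb, and among peaks 10 to 50 kb from a TSS the difference was 0.0627 points (-1.16 to 1.33). PU.1 was present in 10.6% and 9.52%, 1.12 points more (0.367 to 1.88), but the difference was -0.00849 points (-1.13 to 1.17) at 10 to 50 kb. GC content behaved likewise, with a median of 48.5% in first-intron and 47.7% in later-intron peaks over all distances and 47.9% against 48.1% at 10 to 50 kb.

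Some members lay at start sites that the distance column does not use. The centre of 444 members (4.80%, 4.39 to 5.26%) was within 500 bp of a RefSeq TSS when predicted transcripts were counted as well as curated ones, against 2.44% (2.23 to 2.67%) of later-intron peaks. With curated transcripts alone there were 42 such members. A GC box was present in 31.3% (27.2 to 35.8%) of the 444 and in 13.7% (12.97 to 14.4%) of the other 8800 members, a difference of 17.6 points (13.4 to 22.2). These groups were not matched for distance to the listed TSS. Over all members the GC box share was 28.5% at 0.5 to 1 kb from it and 11.4% at 20 to 50 kb. Whether the difference remains at matched distance was not tested. A CTCF match was present in 4.73% and 5.05% (difference -0.316 points, -2.00 to 2.12).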

How the data were processed

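ATAC-seq data from 12 samples, 2 replicates of each of 6 sorted cell types, were analyzed through the master peak-list. The authors aligned reads to mm10 with the ENCODE pipeline without multimapping reads, took reproducible peaks of each cell type, and merged and filtered these with chromVAR into non-overlapping peaks of 499 bp. They annotated them with HOMER, version 4.10.2 in the submitters' processing notes. The position and distance to the TSS were used as deposited, in bp. The peak score deposited by the authors was 0 in every peak and was not used. No column gives reads per sample, so depth is unknown.

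Members, gene lists and motif families were chosen with earlier results of these data known. The splits of the CTCF, GC box and PU.1 shares by intron number and length, the densities with and without a CTCF match, and the search of intron DNA were added after the shares of the 13 families were seen. Genes were named by a rule: the 10 hosts with the most members, up to 4 genes per list with the most members, and Alas2, Cd4, Runx1, Fli1 and Erg. Hivep3 and Ext1, tied with the last of the 10, were named after their values were seen, as were the neighbouring genes Mir3620, Mir3473f and 2010106C02Rik. A gene under this rule is not reported here.

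RefSeq transcripts and sequence of GRCm38.p6, the same build, gave introns, TSSs and bases. Densities used 1 transcript per gene (RefSeq Select, otherwise the longest curated one), left out exons and 500 bp around curated TSSs, and counted peaks by where their centres fell, so a few peaks change class against the annotation. Shares have Wilson and differences Newcombe 95% intervals. Density ratios have exact 95% intervals. No p-value was computed. The searches, intron placement and densities were tested on simulated data. Software was matplotlib 3.10.9, scipy 1.17.1, pandas 2.3.3 and numpy 2.4.6 under Python 3.11.15. Alternatives concerned the promoter limit, repeats, host transcript, chromosomes, intron length, distance, the part of the peak and the TSS set.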

Additional observations from a re-analysis of the deposited data

How the results depend on the processing

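No paired analysis was possible because the list gives no values per sample, and for the same reason no replicate could be left out. The 9244 members became 8654 with a promoter limit of 1000 bp, 11704 with repeats and CpG islands kept and 8629 with the RefSeq Select transcript as host. The density ratio stayed between 1.27 and 1.39 over 4 alternatives, and the CTCF difference between -7.30 and -5.08 points over 4, each with an interval that leaves out 0. In introns with a single member the median position was 46.8%. With the RefSeq Select host the share nearest to another gene was 8.84%, and 8 of the 10 genes with the most members were the same. The share near any RefSeq TSS was 12.9% within 1000 bp and 0.454% with curated transcripts. The GC difference was 0.5 points in the central 200 bp, with an interval that includes 0. At 10 to 50 kb it was -0.200 points (-0.401 to 0.0830), also with an interval that includes 0. The PU.1 difference at 10 to 50 kb was -0.00849 points (-1.13 to 1.17). With 1 peak per host gene it was 0.516 points, and both intervals include 0. Intervals left out 0 for GATA in the central 200 bp (-0.885 points), RUNX at 10 to 50 kb (1.75) and CEBP with 1 peak per host gene (1.79). Of 52 family comparisons under the alternatives, 46 kept their side of the threshold, set by whether the interval included 0. Because neither cell type nor depth is given per peak, the list cannot show in which cells a first-intron peak was open, and a peak missing from it cannot be told apart from one removed by the authors' filters.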

Other observations

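Matches of some families were not evenly split between the strand of the host gene and the other strand. The RUNX letters AACCACA lay on the strand of the host gene in 35.9% (33.7 to 38.1%) of 1896 matches in first-intron peaks and in 38.9% (37.3 to 40.5%) of 3615 in later-intron peaks, so that the reverse complement was the more frequent on that strand in both. PU.1 matches lay on the host strand in 56.9% (53.8 to 59.9%) of 1020 in first-intron peaks and 52.8% (50.5 to 55.1%) of 1817 in later-intron peaks. These intervals overlap, but no interval of the difference was computed, and overlap alone does not show equal shares. GATA matches did so in 46.9% and 46.8%. The host strand of first-intron peaks was 27.4% T and 24.2% A, and 25.1% G and 23.4% C. The RUNX letters AACCACA hold only A and C, each rarer on that strand than the base it pairs with. The part of base composition in these shares was not tested. Matches in 1 peak are not independent.

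In members 5 to 10 kb from the nearest TSS, PU.1 was present in 14.1% (12.5 to 15.9%) of 1652 peaks, against 8.32% (7.18 to 9.63%) of 1959 later-intron peaks, a difference of 5.78 points (3.72 to 7.88). The neighbouring bins had differences of 1.22 points (-1.19 to 3.54) at 2 to 5 kb and 0.974 points (-0.720 to 2.75) at 10 to 20 kb. Over 100 kb the shares were 14.1% of 276 and 9.01% of 2687, a difference of 5.12 points (1.33 to 9.84). These were the PU.1 bins whose interval left out 0, and they were noticed among 8 bins of 13 families.

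Before the repeat and CpG island filter there were 11704 first-intron non-promoter peaks, of which 4.55% lay on a CpG island and 16.5% on a repeat. In later introns the shares were 0.851% and 17.5%. Hosts that are long non-coding RNAs held 5.01% (4.58 to 5.48%) of first-intron and 3.78% (3.51 to 4.07%) of later-intron peaks.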
